A study of Macaca radiata with 6 samples.

Results

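Interleukins and the receptors that bind them were followed in bonnet monkey (Macaca radiata) corpora lutea after prostaglandin F2-alpha (PGF2alpha). The corpus luteum forms in the ovary after ovulation and makes progesterone, and PGF2alpha brings about its regression. The set held every probe set whose single annotated symbol is IL followed by a number and any further letters or digits, leaving out IL1RN, IL1R2 and IL1RL1. It came to 107 probe sets of 69 genes, out of 52865 probe sets on the array and 14132 genes with a single symbol. No brightness filter was applied in choosing them. The PGF2alpha group held 3 arrays from female monkeys given 3 intramuscular injections at 59 µg/kg. The vehicle group held 3 arrays from females given phosphate-buffered saline by the same route. Both groups were treated on day 10 of the luteal phase and the gland was removed 24 h later. No age or genotype is given for either group. The labels give n = 3 without tying an array to an animal, so the p-values here reflect only how much these 6 arrays vary.

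Interleukins are secreted proteins through which leukocytes, endothelium and stromal cells signal to each other. Those of the IL-1 and IL-17 families act through receptors that recruit adaptor proteins and lead to NF-kappaB, while most others act through paired receptor chains that activate Janus kinases and STAT transcription factors. In the regressing corpus luteum, interleukins are studied as signals of the leukocytes that enter the tissue. In a bulk sample, fewer cells of a type and less RNA per cell cannot be told apart.

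Array medians were 115 to 126 in the PGF2alpha group and 122 to 134 in the vehicle group. Arrays correlated with each other at 0.939 to 0.963 (Pearson, log2 scale, across probe sets). The summed signal of 13 macrophage markers was 32693 to 45021 after PGF2alpha and 12258 to 19076 after vehicle. By the limma test described below (adjusted p under 0.05), 6 of the 13 rose and 0 fell, while C1QA, C1QB, C1QC and MSR1 overlapped between groups. Among all genes with a single symbol, 1.66% were higher and 0.892% lower by that test. The summed signal of 10 neutrophil markers was 5958 to 19576 after PGF2alpha and 604 to 1185 after vehicle, with 3 higher, 0 lower and 4 below the median of every array. S100A8 (2231 to 6709) and S100A9 (2403 to 10253) made up most of the sum after PGF2alpha. Of the 10, 8 had a positive log2 fold change, while ELANE (-0.61, adjusted p = 0.501) and MPO (-0.28, adjusted p = 0.766) pointed lower with overlap. The summed signal of 5 B lymphocyte markers overlapped, at 819 to 1157 after PGF2alpha and 567 to 823 after vehicle. Of 15 T and NK lymphocyte markers 8 were on the array under these names, the CD3 chains not among them, and 1 rose (GNLY), while GZMA was lower without overlap (log2 fold change -0.85, adjusted p = 0.0887). Their summed signal was 28320 to 44965 after PGF2alpha and 14659 to 18291 after vehicle. GNLY alone read 15555 to 30861 after PGF2alpha and 1973 to 3322 after vehicle, and GZMB and KLRD1 overlapped. The sum therefore does not speak for the other markers of this list. Endothelial markers summed to 24745 to 34391 after PGF2alpha and 24650 to 28119 after vehicle, and fibroblast markers to 70503 to 87389 after PGF2alpha and 53036 to 73510 after vehicle, with overlap in both lists. Of the endothelial markers CLDN5 rose (log2 fold change 0.90, adjusted p = 0.0385). Luteal steroidogenic markers, of which 6 were named, summed to 74094 to 130327 after PGF2alpha and to 145733 to 174870 after vehicle, with STAR and HSD3B2 among the bright ones. Of these 6, 0 passed the test. STAR, FDX1 and INHA were lower without overlap, HSD3B2 and FDXR overlapped, and PGR overlapped with a positive log2 fold change (0.20). No marker was listed at 0. The part of these shifts in the values that follow was not tested.

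No interleukin or receptor probe set passed the test for a difference between PGF2alpha and vehicle. With limma's test and Benjamini-Hochberg adjustment over 52766 probe sets, 0 of 107 had an adjusted p under 0.05, where 1.57% of all probe sets did (1.01% higher and 0.555% lower). The smallest adjusted p among the 107 was 0.0628. At an unadjusted p under 0.05 there were 22 of 107 (20.6%), against 14.0% of all probe sets. They divided into 14 higher (13.1%, against 6.78% of all probe sets) and 8 lower (7.48%, against 7.20%). The 2 groups of arrays did not overlap in 28 of 107 (26.2%), against 19.4% of all probe sets. The PGF2alpha arrays were higher in 17 of these 28 and lower in 11, while 9.21% of all probe sets were higher and 10.2% lower by this rule.

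Each gene was also counted once, by its probe set of highest mean. None of the 69 genes passed the adjusted threshold by that probe set, against 2.55% of all named genes. Of the 69, 13 (18.8%) had an unadjusted p under 0.05, against 19.6% of all named genes. The groups did not overlap in 16 of the 69 (23.2%), against 25.6% of all named genes. The median log2 fold change was 0.13 over the 107 probe sets and -0.03 over all probe sets, with 40 added to every signal before the log2, which shrinks the fold changes of dim probe sets. Of the 107, 64 (59.8%) had a positive log2 fold change, against 47.0% of all. The arrays were divided into 2 hybridisation runs by the hour of their hybridisation stamps. The median of the 107 was 0.08 within the 4 arrays of the first run and 0.21 between the 2 arrays of the second (PGF2alpha replicate 2 and vehicle replicate 4).

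Many members were dim. A total of 46 of the 107 probe sets lay below the median of their array on all 6 arrays, and 27 lay at or above it on all 6. For 27 genes, among them IL4, IL5, IL9, IL13, IL17A, IL21, IL22, IL23A and IL23R, every probe set lay below the median on every array. Detection calls were not used here, so these signals were not set against background. The standard error of the log2 fold change had a median of 0.327 over the members and 0.280 over all probe sets. PGF2alpha replicate 3 was the nearest of the 3 treated arrays to the vehicle mean in 55 of the 107 probe sets, replicate 1 in 27 and replicate 2 in 25.

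**Figure D1:**
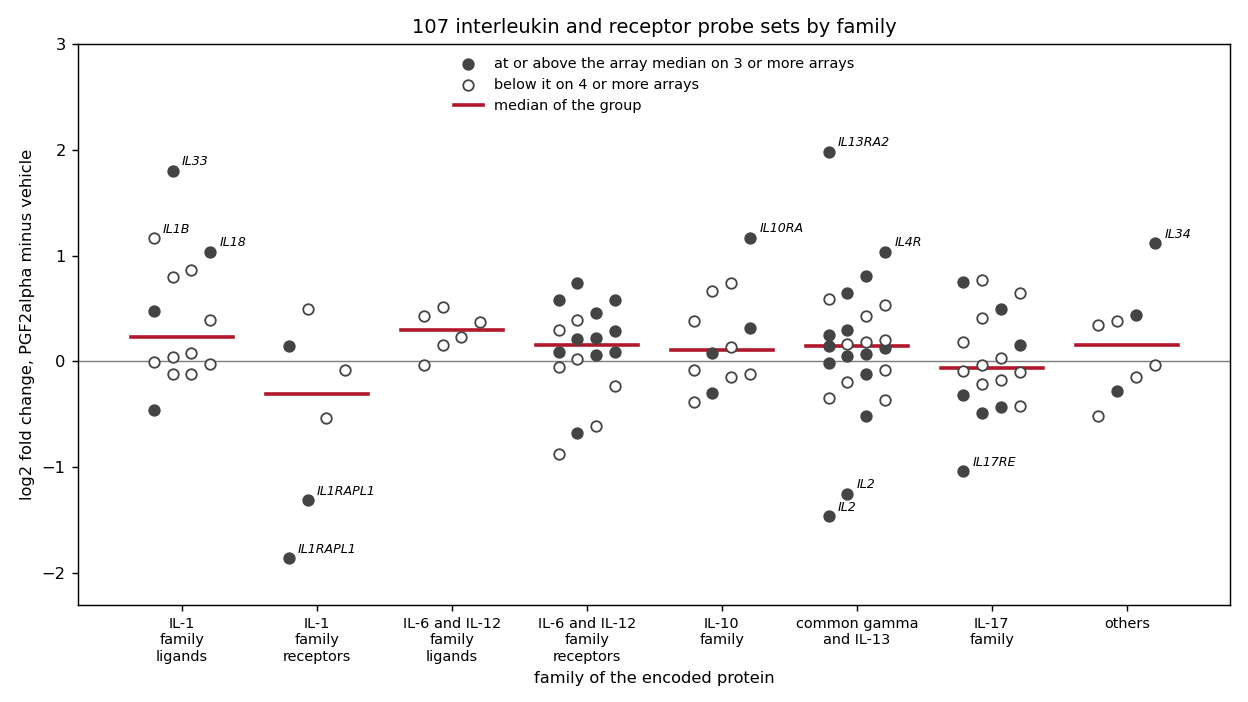
Each point is 1 of the 107 probe sets, with its log2 fold change (PGF2alpha minus vehicle, log2(signal + 40) scale) on the vertical axis and its protein family on the horizontal axis. Filled points lay at or above the array median on 3 or more arrays, red bars are group medians (0.23 for IL-1 family ligands and -0.31 for IL-1 family receptors), and symbols mark probe sets beyond 1 in either direction.

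No IL-1 family ligand passed the test. Of their 14 probe sets, 9 had a positive log2 fold change, 5 were higher and 0 lower at an unadjusted p under 0.05 (35.7% higher, against 6.78% of all probe sets), and the median was 0.23. Among these 5, 2 were probe sets of IL1B and another was a dim probe set of IL37. By the brightest probe set of each of the 9 genes, only IL18 and IL33 were higher at an unadjusted p under 0.05. The share of all named genes higher by that count was 9.85%. IL33, an alarmin of endothelial and stromal nuclei that binds the receptor IL1RL1, read 481, 1452 and 491 on the PGF2alpha arrays, against 98.0, 297 and 169 on the vehicle arrays. Every treated array lay above every vehicle array, and replicate 2 stood apart from the other treated arrays. The log2 fold change was 1.80 (SE 0.443, 95% interval 0.80 to 2.80, adjusted p = 0.0873), and it was 0.98 within the first run and 3.43 in the second. Its receptor IL1RL1, which is not a member, read 14661, 18827 and 13690 after PGF2alpha, against 681, 1698 and 1926 after vehicle (log2 fold change 3.53, adjusted p = 0.00398).

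IL18, which drives interferon-gamma production by lymphocytes, read 738, 2405 and 665 after PGF2alpha, against 546, 611 and 367 after vehicle. The groups did not overlap, but 2 of the treated arrays were close to the vehicle range. Its log2 fold change was 1.04 (SE 0.422, adjusted p = 0.309). IL1B, the secreted inflammatory cytokine that IL1RN and IL1R2 oppose, read 214, 386 and 201 after PGF2alpha, against 213, 126 and 192 after vehicle, in its brightest probe set. These groups overlapped, and the log2 fold change was 0.47 (95% interval -0.20 to 1.15, adjusted p = 0.547). The other IL1B probe sets had log2 fold changes of 0.80 and 1.16 (adjusted p = 0.323 and 0.337), so all 3 pointed higher without passing. IL1A, its membrane-associated relative, read 118, 145 and 66.8 after PGF2alpha, against 60.9, 57.5 and 102 after vehicle, also with overlap (log2 fold change 0.39, adjusted p = 0.682).

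IL37, an anti-inflammatory family member, was inconsistent between probe sets. One read 81.2, 57.9 and 70.6 after PGF2alpha, against 8.77, 54.3 and 7.49 after vehicle (log2 fold change 0.86, adjusted p = 0.272), below the array median throughout. Its brightest probe set had the opposite sign (-0.46, adjusted p = 0.488), and the third was at -0.12.

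Among IL-1 family receptors, only IL1RAPL1 had 2 probe sets, and both read lower after PGF2alpha. Of the 6 probe sets of these receptors, 4 had a negative and 2 a positive log2 fold change. IL1RAPL2, below the array median throughout, overlapped between groups (log2 fold change -0.54, adjusted p = 0.534). IL1RAPL1 belongs to the IL-1 receptor family by sequence and is known as a synaptic adhesion protein of neurons. Its first probe set read 63.7, 12.1 and 130 after PGF2alpha, against 299, 271 and 379 after vehicle. All treated arrays lay below all vehicle arrays, and replicates 1 and 2 were below the array median. The log2 fold change was -1.86 (SE 0.416, 95% interval -2.80 to -0.92, adjusted p = 0.0663), with -1.44 and -2.70 in the first and second runs. The second probe set read 40.5, 108 and 201 after PGF2alpha, against 330, 325 and 286 after vehicle, again without overlap (log2 fold change -1.31, adjusted p = 0.138). The signal-transducing chain IL1RAP, which partners the receptors for IL-1, IL-33 and IL-36, overlapped between groups (log2 fold change 0.14, 95% interval -0.65 to 0.93, adjusted p = 0.911).

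**Figure D2:**
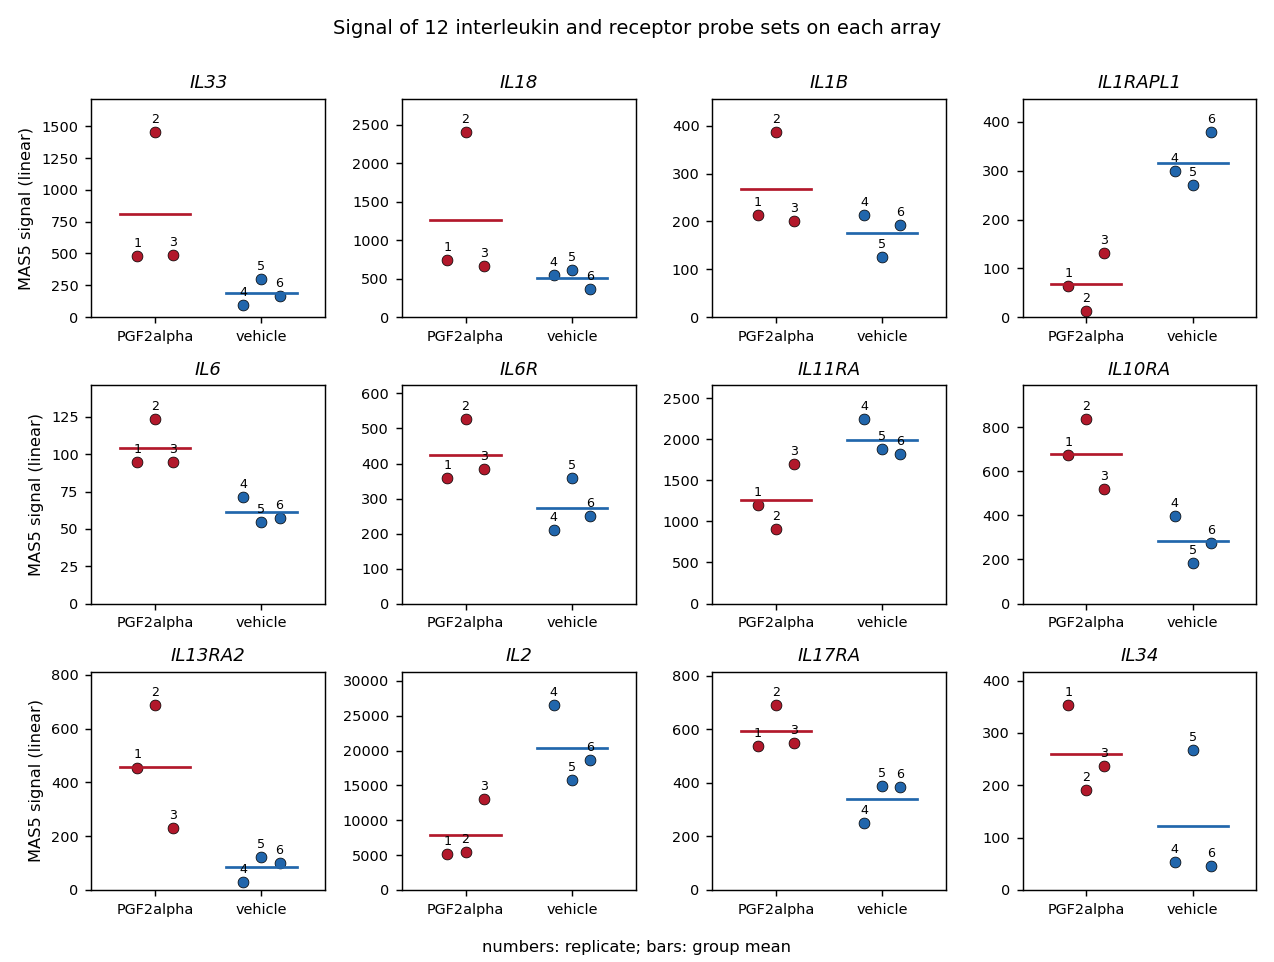
Deposited signal (linear axis from 0) of 12 probe sets, 1 panel each, on the 3 PGF2alpha arrays (red, left) and the 3 vehicle arrays (blue, right), with replicate numbers above the points and bars at the group means. IL33, IL10RA, IL13RA2 and IL17RA lay higher on every PGF2alpha array than on every vehicle array, IL1RAPL1, IL11RA and IL2 lay lower, and IL1B and IL34 overlapped.

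The ligands of the IL-6 and IL-12 families were all low in signal, with 0 of 6 probe sets at or above the array median on 3 or more arrays. IL6, the acute-phase cytokine, read 94.5, 124 and 94.7 after PGF2alpha, against 71.3, 54.9 and 57.1 after vehicle. The groups did not overlap, and the log2 fold change was 0.51 (95% interval -0.13 to 1.15, adjusted p = 0.480). The other IL6 probe set overlapped, at 105, 88.2 and 54.5 after PGF2alpha and 19.9, 128 and 86.8 after vehicle. For IL23A, the IL-23-specific subunit, the log2 fold change was 0.43 (adjusted p = 0.673).

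Their receptors included brighter members that went both ways. IL6R, the ligand-binding chain for IL-6, read 360, 528 and 383 after PGF2alpha, against 211, 358 and 250 after vehicle. The lowest treated value was barely above the highest vehicle value. The log2 fold change was 0.58 (SE 0.240, adjusted p = 0.323), and it was also 0.58 in the other probe set. IL6ST, the signal-transducing chain gp130 shared by IL-6, IL-11 and related cytokines, read 2287, 3767 and 8599 after PGF2alpha, against 4003, 3219 and 4772 after vehicle. The treated arrays spread on both sides of the vehicle arrays (log2 fold change 0.09, 95% interval -0.79 to 0.98, adjusted p = 0.953).

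IL11RA, the receptor for IL-11, read 1196, 902 and 1700 after PGF2alpha, against 2252, 1885 and 1824 after vehicle. It was lower on every treated array, with a value of -0.67 on the log2 scale (SE 0.213, adjusted p = 0.178), while its dimmer probe set stood at 0.74 (adjusted p = 0.630). IL27RA, the IL-27 receptor, overlapped between groups in its brightest probe set (log2 fold change 0.45, adjusted p = 0.557), with 0.09 and 0.30 in the others. IL12RB2, a chain of the IL-12 receptor chosen here after its values were seen, had log2 fold changes from 0.02 to 0.22 over 4 probe sets.

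The ligand-binding chain of the IL-10 receptor showed higher values after PGF2alpha, whereas IL10 itself gave no clear direction. IL10RA, expressed mainly by leukocytes, read 672, 838 and 520 after PGF2alpha, against 398, 184 and 275 after vehicle. Every treated array was above every vehicle array and all 6 values exceeded the array median. The log2 fold change was 1.17 (SE 0.272, 95% interval 0.56 to 1.78, adjusted p = 0.0744), with 1.25 in the first run and 1.003 in the second. Blocking on the run moved IL10RA past the threshold (adjusted p = 0.0401). IL10RB, the accessory chain that many cell types carry, read 1125, 1022 and 909 after PGF2alpha, against 894, 755 and 774 after vehicle. It did not overlap either, and the log2 fold change was 0.32 (SE 0.148, adjusted p = 0.382).

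IL10, the cytokine that dampens macrophage activation, read 716, 799 and 937 after PGF2alpha, against 1107, 932 and 993 after vehicle, in the brighter of 2 probe sets. These values overlapped by 1 array (log2 fold change -0.30, 95% interval -0.64 to 0.05, adjusted p = 0.438). The other probe set read 38.3, 25.1 and 109 after PGF2alpha, against 22.4, 13.9 and 16.7 after vehicle (log2 fold change 0.67, adjusted p = 0.420). The pair therefore had opposite signs, neither past the threshold.

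Among the receptors for IL-4 and IL-13, IL13RA2 had the largest positive log2 fold change of all 107 probe sets at a pseudocount of 40, while IL33 was larger at a pseudocount of 160 (1.37, against 1.29 for IL13RA2), without PGF2alpha replicate 1 (2.06, against 1.93) and in the second run. IL13RA2, which binds IL-13 and is regarded as a decoy, read 455, 687 and 229 after PGF2alpha, against 28.0, 123 and 101 after vehicle. The treated arrays were all above their array medians and the vehicle arrays all below. The log2 fold change was 1.98 (SE 0.436, 95% interval 1.001 to 2.97, adjusted p = 0.0628), and it was 1.27 in the first run and 3.42 in the second, in which the vehicle array had the lowest value. IL13RA1, the signalling chain for IL-13, read 4549, 4259 and 4485 after PGF2alpha, against 3665, 3554 and 3934 after vehicle. Its replicates were tight and did not overlap, yet the log2 fold change was only 0.25 (SE 0.119, adjusted p = 0.391), and the other probe sets gave 0.15 and 0.05.

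IL4R, the chain shared by the receptors for IL-4 and IL-13, differed between its probe sets. The brighter one read 569, 668 and 537 after PGF2alpha, against 464, 681 and 485 after vehicle (log2 fold change 0.13, adjusted p = 0.840). The dimmer one, chosen after its values were seen, read 339, 495 and 187 after PGF2alpha, against 133, 132 and 140 after vehicle (log2 fold change 1.04, SE 0.319, adjusted p = 0.165). Only the second was free of overlap. IL2RG, the common gamma chain of the receptors for IL-2, IL-4, IL-7, IL-9, IL-15 and IL-21, overlapped between groups (log2 fold change 0.30, 95% interval -0.13 to 0.73, adjusted p = 0.547), and its other probe set was at -0.02. IL15, a survival factor for NK and memory T cells, pointed higher in all 3 probe sets, with log2 fold changes of 0.43 to 0.81 and adjusted p of 0.299 to 0.640.

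A pair of probe sets annotated to IL2, the T cell growth factor, was bright and lower after PGF2alpha. The first read 5226, 5384 and 13032 after PGF2alpha, against 26525, 15727 and 18665 after vehicle. The second read 8274, 11922 and 24383 after PGF2alpha, against 39393, 24870 and 33334 after vehicle. In both, the groups did not overlap and replicate 3 lay nearest to the vehicle arrays, and the log2 fold changes were -1.46 (SE 0.342, adjusted p = 0.0748) and -1.25 (SE 0.355, adjusted p = 0.133). The first was -1.05 in the first run and -2.29 in the second.

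The third IL2 probe set read 10.4, 29.4 and 12.3 after PGF2alpha, against 4.68, 6.88 and 19.4 after vehicle (log2 fold change 0.18, adjusted p = 0.779). It did not share the level or the sign of the pair, and the annotation gives all 3 to the same gene. The summed luteal markers were also lower on every treated array, at 74094, 82994 and 130327 after PGF2alpha and 145733, 174870 and 146917 after vehicle. Among the vehicle arrays, replicate 4 was highest for the bright pair and replicate 5 for the luteal sum. The single luteal markers varied in this. FDX1 and INHA were highest on replicate 4, STAR, FDXR and HSD3B2 on replicate 5 and PGR on replicate 6. Which transcript the bright pair reads was not tested.

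**Figure D3:**
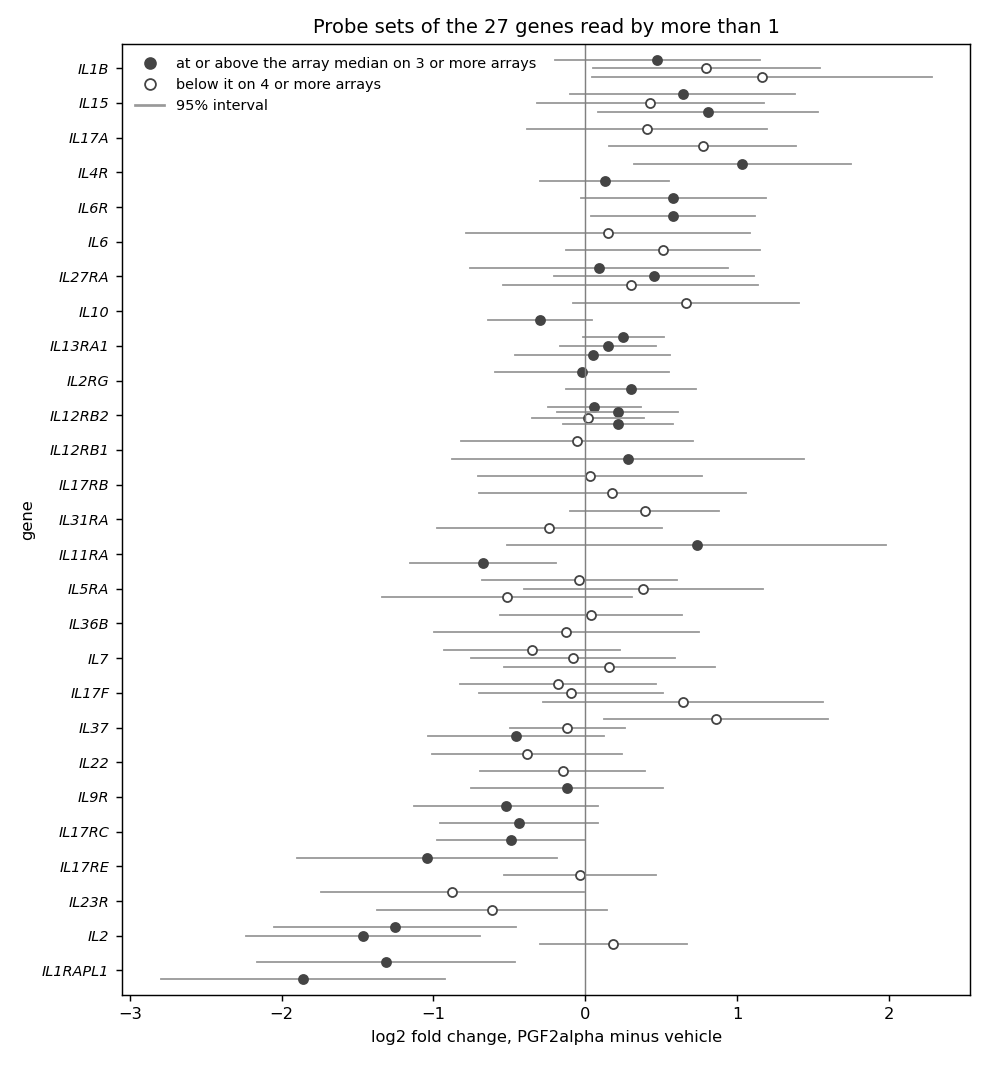
Log2 fold change (PGF2alpha minus vehicle) with its 95% interval for every probe set of the 27 genes read by more than 1, ordered by gene median, with filled points for probe sets at or above the array median on 3 or more arrays. The probe sets shared one sign in 16 genes (10 positive, 6 negative) and differed in sign in 11, IL2, IL10, IL11RA and IL37 among them.

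In the IL-17 family, the shared receptor chain IL17RA was higher on every PGF2alpha array. It read 538, 690 and 549 after PGF2alpha, against 249, 389 and 384 after vehicle. The log2 fold change was 0.75 (SE 0.212, 95% interval 0.27 to 1.22, adjusted p = 0.133), with 0.45 in the first run and 1.34 in the second. The ligand IL17A, made by T helper and innate lymphocytes, was below the array median on all arrays in both probe sets. The one of smaller p read 12.3, 65.9 and 41.1 after PGF2alpha, against 1.42, 5.59 and 7.64 after vehicle, without overlap (log2 fold change 0.77, adjusted p = 0.236), and the other overlapped (0.41, adjusted p = 0.681). The receptor chain IL17RE, chosen after its values were seen, read 20.1, 52.1 and 118 after PGF2alpha, against 137, 170 and 165 after vehicle. That probe set stood at -1.04 on the log2 scale (adjusted p = 0.253), while the other was at -0.03. Over the 18 probe sets of the family the median was -0.06, with 3 higher (16.7%, against 6.78% of all probe sets) and 2 lower (11.1%, against 7.20%) at an unadjusted p under 0.05. The higher ones were of IL17A, IL17RA and IL17D, and the lower ones of IL17RE and IL17RC. That IL17RC probe set stood at -0.49 without overlap (adjusted p = 0.356), and its other probe set at -0.44 with overlap (adjusted p = 0.456).

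IL34, a ligand of the macrophage receptor CSF1R, read 353, 190 and 238 after PGF2alpha, against 52.6, 268 and 46.4 after vehicle. Vehicle replicate 5 lay among the treated values (log2 fold change 1.12, SE 0.481, adjusted p = 0.340). IL16, a chemoattractant for CD4 cells, overlapped (log2 fold change 0.44, adjusted p = 0.704), with -0.11 in the first run and 1.52 in the second. IL5RA, the IL-5 receptor chain of eosinophils and basophils, was low throughout, with log2 fold changes of -0.52 (adjusted p = 0.599), -0.04 and 0.38 in its 3 probe sets. Of the 24 genes to be described whatever their values, IL8 or CXCL8, IL1R1, IL18R1, IL7R and IL18BP had no probe set in the set and were not analysed here.

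The 5 probe sets of smallest p had adjusted p of 0.0628 to 0.0873, and which of them passed differed between settings of the fit. IL13RA2 and the first IL1RAPL1 probe set passed with robust eBayes (adjusted p = 0.0366 and 0.0384) and with array weights (adjusted p = 0.0487 and 0.0476). Restricting the test to the 26944 probe sets at or above the array median on at least 3 arrays kept 47 of the 107. Under this restriction 4 of the 47 passed, in a test in which 5.01% of all tested probe sets passed (3.02% higher and 1.99% lower). IL13RA2 (adjusted p = 0.0330) and IL10RA (adjusted p = 0.0409) were higher, and IL1RAPL1 (adjusted p = 0.0342) and the first IL2 probe set (adjusted p = 0.0417) were lower, while IL33 was at 0.0510. IL13RA2 passed the restriction through the PGF2alpha arrays alone, so its selection favoured a rise. With this restriction, no member passed when PGF2alpha replicate 1, PGF2alpha replicate 2 or vehicle replicate 6 was left out. IL13RA2 was not tested there without any 1 of the PGF2alpha arrays, since it then no longer met the restriction. IL10RA alone passed without vehicle replicate 4 (adjusted p = 0.0359), and IL34 alone without vehicle replicate 5 (adjusted p = 0.0403). Without PGF2alpha replicate 3, 3 members were higher and 5 lower with the restriction, and 2 higher and 5 lower in the test of all probe sets.

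**Figure D4:**
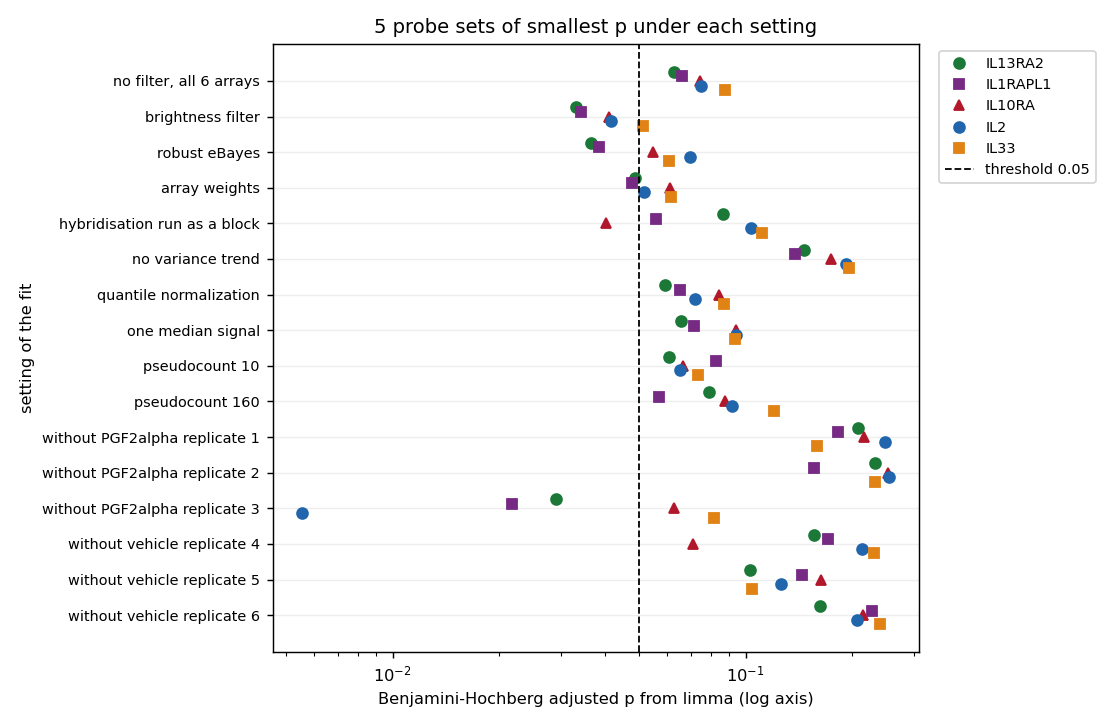
Adjusted p from limma (log axis) of the 5 members of smallest p under each setting of the fit, with the threshold of 0.05 as a dashed line. In the top row, the test of all probe sets described above, the 5 lay between 0.0628 and 0.0873, to the right of the line. Some of the 5 passed in other rows, and IL2 reached 0.00553 without PGF2alpha replicate 3.

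Some genes that carry or restrain interleukin signals passed the test, all of them higher after PGF2alpha. Of a list of 58 such genes 46 were on the array under these names, and 9 rose and 0 fell, against 1.66% of all named genes higher and 0.892% lower. The 3 of largest fold were the antagonist IL1RN (3.11, adjusted p = 0.0121), the decoy receptor IL1R2 (3.11, adjusted p = 0.0116) and IL1RL1. These had been seen to be high in earlier results of these data, and IL1RN and IL1R2 oppose IL-1. Not counting these 3, an alternative chosen after seeing the data, 6 of 43 rose and 0 fell, with a median log2 fold change of 0.28, against 0.35 for all 46.

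The others that rose were intracellular mediators and receptor chains. PYCARD, the inflammasome adaptor through which caspase-1 comes to cleave IL-1 beta and IL-18, read 1158, 1748 and 542 after PGF2alpha, against 223, 219 and 309 after vehicle (log2 fold change 1.90, adjusted p = 0.0378). CASP4, an inflammatory caspase, read 1791, 1764 and 1542 after PGF2alpha, against 881, 964 and 926 after vehicle (log2 fold change 0.85, adjusted p = 0.0184). OSMR, the oncostatin M and IL-31 receptor chain, read 13201, 11393 and 12808 after PGF2alpha, against 6699, 7854 and 7302 after vehicle (log2 fold change 0.77, adjusted p = 0.0326). In each of these genes all treated arrays lay above all vehicle arrays.

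CEBPD, a transcription factor of the acute-phase response, rose by 0.93 on the log2 scale (adjusted p = 0.0281). PTPN6, a phosphatase of blood cells that restrains cytokine receptors, rose by 1.003 (adjusted p = 0.0441). CSF2RB, the common beta chain for IL-3, IL-5 and GM-CSF, rose by 0.82 (adjusted p = 0.0460). STAT3, through which IL-6 and IL-10 act, stood at 0.94 (adjusted p = 0.115), the IL-6-induced inhibitor SOCS3 0.63 (adjusted p = 0.583) and the kinase JAK2 0.42 (adjusted p = 0.327). These 3 did not pass and were not picked by a rule, and SOCS3 reached the array median on only 2 arrays. SOCS2 (-0.78, adjusted p = 0.188) and IRAK1 (-0.60, adjusted p = 0.297) were lower without overlap and did not pass either. Of the 46 list genes, 34 had a positive log2 fold change, against 47.6% of all named genes. The number of list genes that rose came to 1 when PGF2alpha replicate 1 or replicate 2 was left out and to 8 when replicate 3 was. It came to 4 when vehicle replicate 4 was left out, 3 when replicate 5 was and 2 when replicate 6 was. Within the first run it was 1, and with no variance trend it was 0.

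**Figure D5:**
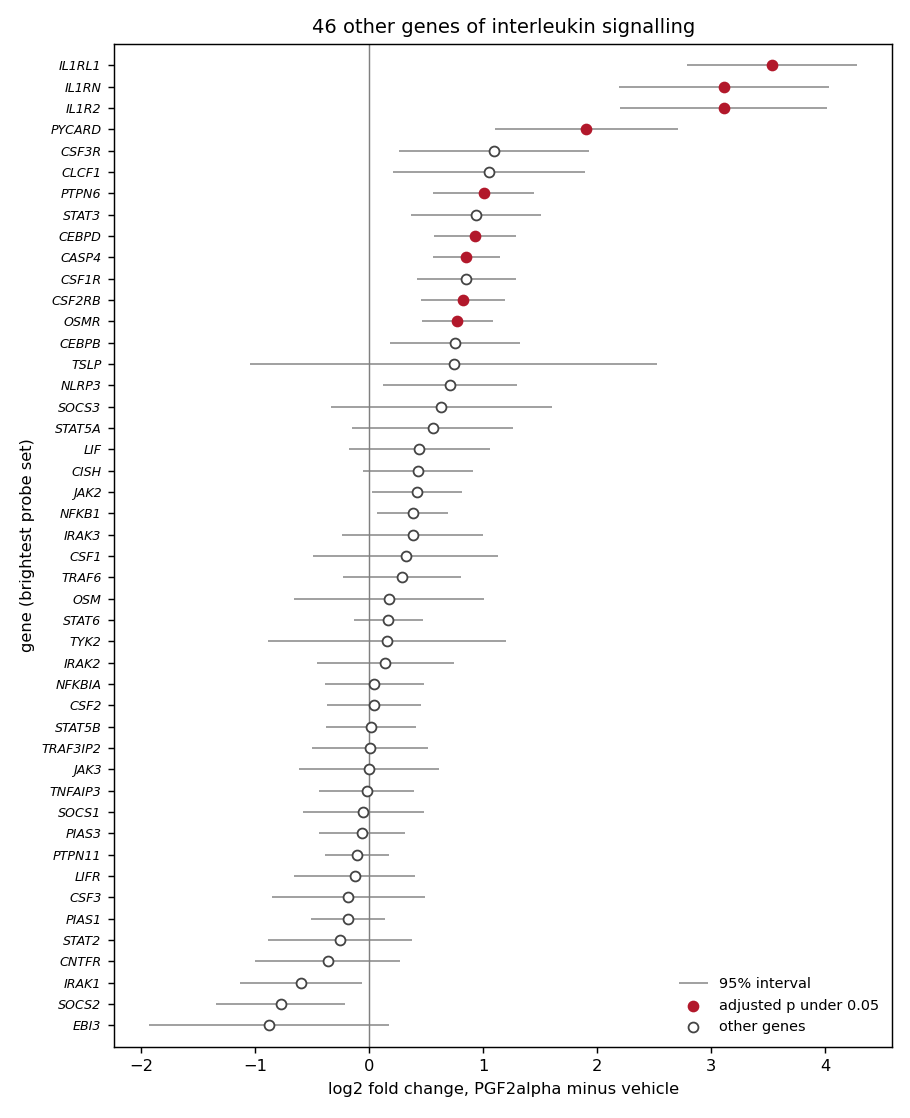
Log2 fold change (PGF2alpha minus vehicle) with its 95% interval for the brightest probe set of each of 46 other genes of interleukin signalling, in order of size. The 9 red points had an adjusted p under 0.05, all of them positive, with IL1RL1 at 3.53 the largest.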

How the data were processed

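Per the labels, the authors made the deposited table with Microarray Suite 5.0, as linear intensity per probe set, from a rhesus macaque array hybridised with bonnet monkey RNA. Their trimmed mean (2% off each end) was 500.0 on all 6 arrays, so no further scaling was applied. Mismatches between the probes and the sequence of the other macaque species would lower a signal in either group. Probes were named from a platform annotation that can be old (1 symbol for 24969 probe sets, several for 361, none for 27535). No genome or sequence table was used.

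log2(signal + 40) of the 52766 probe sets that are not controls was fitted with limma 3.58.1 in R 4.3.3 (lmFit, eBayes with a variance trend, two-sided, without covariates). Adjusted p-values (Benjamini-Hochberg) covered all of these probe sets, at a threshold of 0.05. The fit was tested on simulated data. The number of arrays limits the precision. Runs were formed here from the hour of the hybridisation stamp in the file headers. PGF2alpha replicate 2 and vehicle replicate 4 carried a later hour than the other 4 arrays and were taken as the second run. The scan of vehicle replicate 4 is stamped before its hybridisation, so its run is uncertain, although these 2 arrays were also the last scanned. The ratio of 3-prime to 5-prime beta-actin controls was 1.73 to 1.78 after PGF2alpha and 1.49 to 2.25 after vehicle.

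Named probe sets were those past the threshold, the 2 of smallest p in each family, and the brightest of 24 genes named whatever their values. Other probe sets of a named gene are given beside it. The members and lists were chosen with earlier results of these data known. Alternatives were other pseudocounts, normalizations, variance models, a brightness filter, the run as a block, and leaving out each array.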

Additional observations from a re-analysis of the deposited data

How the results depend on the processing

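No paired analysis was possible because the groups share no replicate number. The counts of 0 higher and 0 lower members were also obtained with pseudocounts of 10 and 160, quantile normalization and one median signal. They were the same with no variance trend and within run 1. Leaving out members with the suffixes _x_at and _s_at only recounted the fit of all probe sets, so it could give nothing but 0. Members higher and lower numbered 2 and 2 with the brightness filter, 1 and 1 with robust eBayes, 1 and 1 with array weights, and 1 (IL10RA) and 0 with the run as a block. By gene, with only the probe set of highest mean counted, the called members were 2 with the filter and 1 with each of the other settings just named. They were 0 in the fit of all probe sets. The called IL1RAPL1 and first IL2 probe sets were not those of highest mean and so did not count. Without 1 array, 0 to 2 probe sets were higher and 0 to 5 lower (0 to 4 genes, counted the same way), the highest counts being without PGF2alpha replicate 3. With the filter and without 1 array, a setting chosen after seeing the data, 0 to 3 were higher and 0 to 5 lower. All called probe sets numbered 1351 with the filter, 1041 with robust eBayes, 1070 with array weights, 722 with the run as a block, 19 with no variance trend, 7 within run 1 and 58 to 1248 without 1 array, against 826. The cause was not tested. The members' median, 0.13, was 0.21 within run 2, 0.06 with a pseudocount of 160 and 0.06 to 0.14 without 1 array. Signalling genes higher numbered 0 with no variance trend, 1 within run 1 and 1 to 8 without 1 array, against 9, and none was lower in any setting run. Signs changed in 4 named members, and the cause was not tested. IL6ST was -0.000814 with array weights and -0.0868 within run 2. Without 1 array IL6ST ran from -0.42 (without PGF2alpha replicate 3) to 0.52, with -0.0552 without vehicle replicate 5. IL1RAP without 1 array ran from -0.12 (without vehicle replicate 5) to 0.37, with -0.0546 without PGF2alpha replicate 2. IL4R was -0.0537 and IL16 -0.11 within run 1. These IL6ST and IL1RAP values without 1 array were the same with the filter. The log2 fold changes of IL33 ran from 0.98 to 3.43, of IL13RA2 from 1.27 to 3.42, of IL10RA from 0.92 to 1.41, of the first IL2 probe set from -2.29 to -1.05 and of IL1RAPL1 from -2.70 to -1.08 in its first and from -1.69 to -0.82 in its second probe set over the settings run. Detection calls were not used, which limits what the dim members could show.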
